A study of Mus musculus with 10 samples.

Results

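The genes of oxidative phosphorylation were described across the cell types of the mouse medial prefrontal cortex (mPFC) and between dominant and subordinate mice. A gene was a member when both deposited feature lists held its Ensembl identifier and its symbol matched a subunit or assembly-factor prefix (Nduf, Sdh, Uqcr, Cox4 to Cox8, Atp5, or the protein-coding mt- genes); 107 of the 30406 shared genes did, 94 encoded in the nucleus and 13 on the mitochondrial chromosome. By complex, the nuclear members comprised 36 genes of complex I, 4 of complex II, 8 of complex III, 19 of complex IV and 17 of complex V, with 10 assembly or coupling factors. The mitochondrial members comprised 7 genes of complex I, 1 of complex III, 3 of complex IV and 2 of complex V. The 10 droplet single-cell libraries came from C57BL/6N males over 2 months old, whose mPFC was punched from slices 1 day after the final tube test, an assay of social dominance in which 2 mice meet in a narrow tube. The social dominants (rank 1) gave 5 libraries and the subordinates (rank 4) gave the other 5. Each library pooled 2 to 3 mice, so a library, not a mouse, was the replicate. The labels name no treatment or genetic modification for either rank.

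Oxidative phosphorylation makes most of the ATP of a neuron. Complexes I (NADH dehydrogenase) and II (succinate dehydrogenase) feed electrons to ubiquinone, complex III (cytochrome bc1) passes them to cytochrome c, and complex IV (cytochrome c oxidase) hands them to oxygen, while complexes I, III and IV pump protons that complex V (ATP synthase) spends. All complexes but II are mosaics of both genomes, and several nuclear subunits of complex IV have paralogs that replace each other in particular tissues, such as Cox4i2 for Cox4i1, Cox6a2 for Cox6a1 and Ndufa4l2 for Ndufa4.

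The libraries held 4442750 to 29278466 unique molecular identifiers (UMIs, one count per captured RNA molecule) in 1838 to 15826 barcodes. Cells with at least 500 genes and at most 15% of UMIs from mt- genes were kept, and 45864 of 64937 barcodes remained after 3915 called doublets were also removed. The mt- limit acts on the mitochondrial members themselves: it removed 1.33% of barcodes in rank 4 replicate 5 and 51.4% in rank 4 replicate 1, so mitochondrial levels below are levels within that bound. Cells were clustered without any member or other mt- gene and named from listed markers, and a cell-type name stands for "like" that type. The named classes held 16655 excitatory neurons, 9005 astrocytes, 4337 endothelial cells, 3611 microglia, 3226 oligodendrocyte precursors (OPC), 2303 oligodendrocytes, 2216 inhibitory neurons, 1654 pericytes, 523 smooth muscle cells (8 libraries) and 317 committed OPC (7 libraries). Summed pericyte markers stood at 22922 CPM (a gene's UMIs per 1000000 UMIs of its class and library) in pericytes, 5584 in smooth muscle cells and 643 in endothelial cells, and smooth muscle markers at 29276 CPM in smooth muscle cells and 2475 in pericytes. Excitatory-neuron markers also gave 247 to 523 CPM in the other 9 classes against 2373 CPM in excitatory neurons, and the part of neuronal RNA in the levels below was not tested. Replicates 1 to 3 of both ranks carried one software version and gene list and replicates 4 and 5 another. Libraries shared 0 to 104 barcodes with each other, at most 1.70% of the smaller library.

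The promoters of the nuclear members were searched for a feature that the symbol rule did not use. Matches to the core of the site named for nuclear respiratory factor 1 (NRF1), a transcription factor known for driving respiratory-chain genes, were searched on both strands in the 300 bases from 250 before to 50 after each start. A match occurred in 19 of the 77 nuclear members with a RefSeq promoter in the GRCm38.p6 table (24.7%) and in 1402 of 27025 genes of that table (5.19%). By complex, the promoters of 7 of 32 complex I genes, 2 of 3 complex II genes, 1 of 5 complex III genes, 1 of 13 complex IV genes, 6 of 15 complex V genes and 2 of 9 assembly factors held one. A match describes letters in a window and is neither a site nor a cause. The 250 bases before the start are shown 5′ to 3′ for 3 genes that hold a match, whose letters are in capitals, and for 1 that does not. They are Atp5k, the e subunit of the ATP synthase membrane part, at chr5:108434400-108434649, Ndufs5, a complex I subunit, at chr4:123718187-123718436, Sdhd, a membrane anchor of complex II, at chr9:50603850-50604099, and Atp5e, the epsilon subunit of ATP synthase, at chr2:174464102-174464351, all on the minus strand. Atp5k and Atp5e are shown because they passed the rank test with the replicate block below, Ndufs5 because it had one of the smallest p in astrocytes without passing, and Sdhd for its pattern across classes. The first base of the match lay 50, 98 and 79 bases before the start in Atp5k, Ndufs5 and Sdhd.
Atp5k: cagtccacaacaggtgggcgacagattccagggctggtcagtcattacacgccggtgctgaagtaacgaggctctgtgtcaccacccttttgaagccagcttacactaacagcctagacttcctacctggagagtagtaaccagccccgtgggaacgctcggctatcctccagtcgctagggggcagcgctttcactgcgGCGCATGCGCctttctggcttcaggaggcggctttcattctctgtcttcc
Ndufs5: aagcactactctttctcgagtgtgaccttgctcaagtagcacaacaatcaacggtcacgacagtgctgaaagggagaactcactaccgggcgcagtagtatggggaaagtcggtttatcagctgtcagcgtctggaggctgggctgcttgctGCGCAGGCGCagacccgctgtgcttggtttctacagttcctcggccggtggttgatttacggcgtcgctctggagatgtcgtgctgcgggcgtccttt
Sdhd: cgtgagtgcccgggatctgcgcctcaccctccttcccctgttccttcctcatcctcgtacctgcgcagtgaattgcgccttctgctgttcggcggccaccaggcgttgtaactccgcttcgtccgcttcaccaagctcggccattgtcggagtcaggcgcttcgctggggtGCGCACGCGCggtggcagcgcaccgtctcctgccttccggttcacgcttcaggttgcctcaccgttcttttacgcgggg
Atp5e: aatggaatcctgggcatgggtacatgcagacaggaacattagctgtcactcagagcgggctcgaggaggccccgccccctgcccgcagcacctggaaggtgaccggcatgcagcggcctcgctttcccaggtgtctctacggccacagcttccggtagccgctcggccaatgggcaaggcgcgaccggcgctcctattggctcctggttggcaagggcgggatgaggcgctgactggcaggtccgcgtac

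Mural cells of blood vessels, the smooth muscle cells and pericytes that wrap arterioles and capillaries, had the highest mean shares of UMIs from the nuclear members, in pericytes by a narrow margin, and microglia the lowest mean. The nuclear members took 3.60 ± 0.38% of UMIs in smooth muscle cells (SD, n = 8 libraries), 3.30 ± 0.62% in pericytes (n = 10), 3.03 ± 0.85% in astrocytes, 2.80 ± 0.61% in OPC and 2.63 ± 0.81% in inhibitory neurons. Committed OPC followed at 2.57 ± 0.55% (n = 7), then endothelial cells at 2.41 ± 0.58%, excitatory neurons at 2.32 ± 0.63%, oligodendrocytes at 2.28 ± 0.55% and microglia at 2.04 ± 0.50%. No pair of neighbours in that order differed by more than the pooled SD over libraries. Within libraries, smooth muscle cells lay above pericytes in 8 of 8 and pericytes above endothelial cells, excitatory neurons, OPC, oligodendrocytes and microglia in 10 of 10, but pericytes lay above astrocytes in only 6 of 10 and above inhibitory neurons in 7 of 10. At the other end, microglia lay below endothelial cells in 10 of 10 libraries but below excitatory neurons and below oligodendrocytes in only 6 of 10 each. Without Ndufa4l2 and Cox4i2, a pair of genes described below, pericytes stood at 3.00 ± 0.59% and smooth muscle cells at 3.50 ± 0.37%, so that the pericyte mean lay below the 3.03% of astrocytes. These are levels without a test, because a summed score over chosen genes was given none. Removing all mt- UMIs from the total left the order unchanged, from 3.84% in smooth muscle cells to 2.16% in microglia.

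Per cell the order was another one. Excitatory neurons carried 96.2 ± 33.5 nuclear-member UMIs per cell and inhibitory neurons 93.3 ± 26.9, against 73.5 in smooth muscle cells (n = 8), 44.4 ± 26.3 in pericytes and 33.2 ± 22.8 in microglia. The means of both neuron classes were thus the highest per cell, but within libraries excitatory neurons lay above inhibitory neurons in only 4 of 10 and above smooth muscle cells in 4 of 8.

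The mitochondrial members followed no such order. They took 7.72 ± 3.58% of UMIs in oligodendrocytes, 6.97 ± 1.46% in excitatory neurons and 6.88 ± 1.99% in inhibitory neurons, then 6.32 ± 2.11% in committed OPC and 6.23 ± 1.04% in smooth muscle cells. The other classes lay between 5.04 ± 2.32% in astrocytes and 5.23 ± 1.70% in endothelial cells, and again no neighbours differed beyond the pooled SD. Oligodendrocytes varied most among libraries, with 10.9, 3.93, 4.12, 11.6 and 9.52% in rank 1 and 12.3, 4.26, 4.93, 11.0 and 4.72% in rank 4. The values above 10% came from replicates 1 and 4 of both ranks. Within libraries, oligodendrocytes lay above astrocytes, microglia, OPC and pericytes in 10 of 10 and above endothelial cells in 7 of 10. They lay above excitatory neurons in only 5 of 10, inhibitory neurons in 6 of 10, committed OPC in 5 of 7 and smooth muscle cells in 4 of 8. Rank 4 replicate 1, the library that lost most barcodes to the mt- limit, had the highest mitochondrial share in each of the 9 classes it reached.

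**Figure D1:**
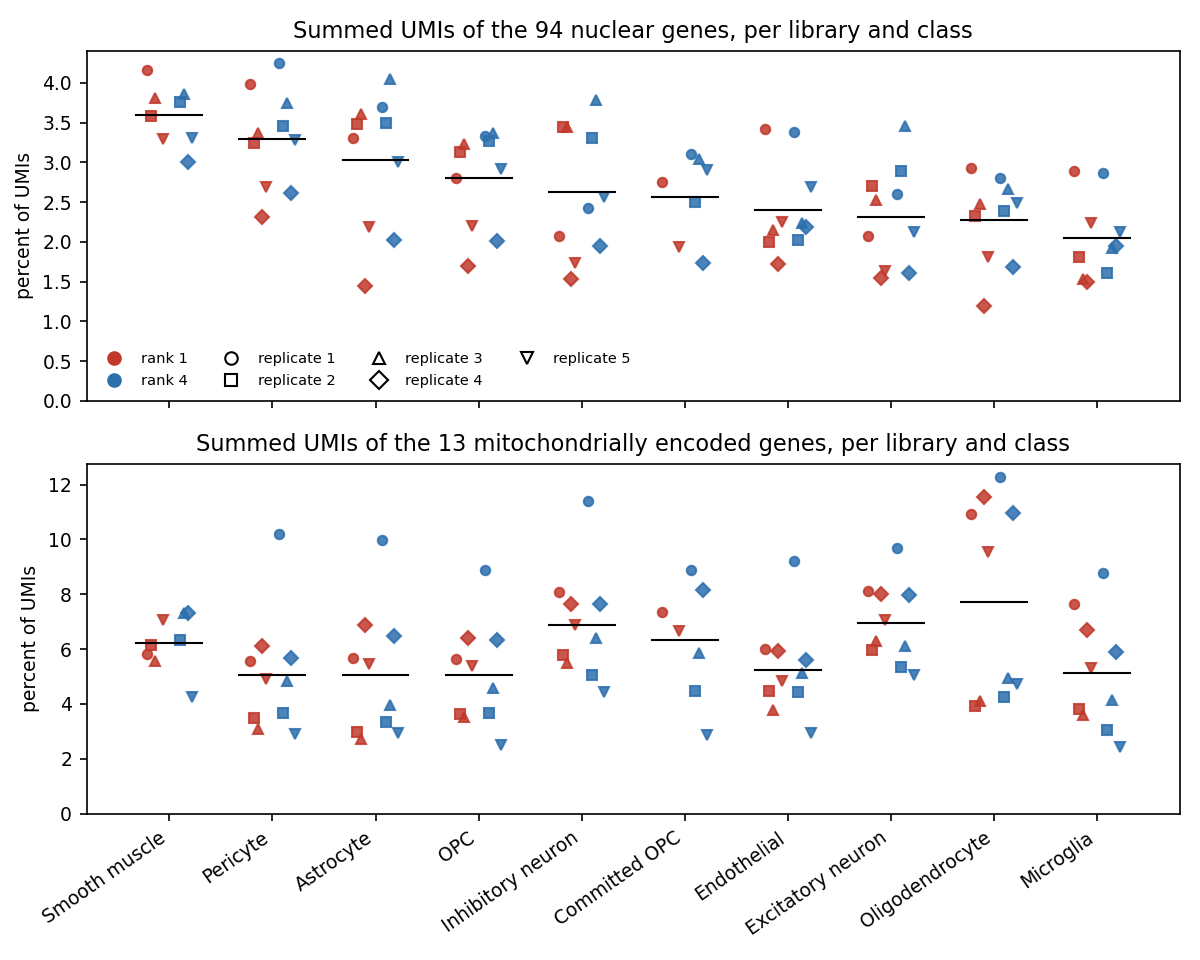
Percent of a class's UMIs taken by the 94 nuclear members (top) and the 13 mitochondrial members (bottom), 1 point per library; colour is the rank, shape the replicate number and bars are means over libraries. Smooth muscle cells (mean 3.60%) and pericytes (3.30%) have the highest means in the nuclear panel, and the libraries of a class spread widely, in oligodendrocytes from 3.93 to 12.3% in the mitochondrial panel.

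The nuclear members were highest on average in smooth muscle cells for 44 of 94 genes, in astrocytes for 16, in inhibitory neurons for 15, in pericytes for 8, in OPC for 6, and in committed OPC, endothelial cells and oligodendrocytes for 2, 2 and 1. Excitatory neurons and microglia were the highest class for none, and microglia the lowest for 44. Between the most numerous classes, 82 of 94 nuclear members had a higher mean in astrocytes than in excitatory neurons, whereas 12 of 13 mitochondrial members had a higher mean in excitatory neurons. These counts were not taken over all genes, so they do not show that the members differ from other genes. Smooth muscle cells were also among the smallest classes, with 523 cells in 8 libraries. Single genes are described next, each compared with itself across classes on the CPM scale.

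In complex I, Ndufs1, the large iron-sulfur subunit of the electron-input arm, was highest in inhibitory neurons at 125 ± 25.1 CPM and lowest in endothelial cells at 42.5 ± 12.5 CPM, and excitatory neurons (105 ± 13.2 CPM) lay close to the inhibitory ones. Among subclasses of inhibitory neurons, the Pvalb cells, fast-spiking interneurons, held 167 CPM of it. Ndufa7, an accessory subunit, ran the other way. It gave 649, 637, 691, 401 and 469 CPM in endothelial cells of the rank 1 libraries and 703, 733, 679, 469 and 592 CPM in the rank 4 libraries, and 150.5, 216, 209.9, 93.2 and 116 CPM in excitatory neurons of the rank 1 libraries and 220.0, 251, 312, 109.5 and 169 CPM in the rank 4 libraries. Every endothelial value exceeded every excitatory one, with means of 602 ± 116 CPM and 185 ± 69.6 CPM. Ndufaf2, an assembly factor of complex I, ranged from 40.3 ± 22.7 CPM in microglia to 117 ± 76.1 CPM in committed OPC.

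Complex II, the only complex with no mitochondrially encoded subunit, was led by smooth muscle cells in both of its membrane anchors. Sdhc gave 219.6, 128, 242 and 119 CPM in smooth muscle cells of the 4 rank 1 libraries and 169, 157, 195 and 168 CPM in the 4 rank 4 libraries, against 28.1 to 58.5 CPM in excitatory neurons. The lowest smooth muscle library was thus above the highest excitatory one, with means of 175 ± 42.5 CPM and 42.3 ± 9.76 CPM. Sdhd stood at 110.4 ± 62.9 CPM in smooth muscle cells and 48.6 CPM in committed OPC. Sdha, the catalytic flavoprotein that oxidises succinate, was instead highest in inhibitory neurons at 299 ± 56.6 CPM and lowest in microglia at 146 CPM.

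In complex III, Uqcrh, the hinge protein that holds cytochrome c1, reached 729 ± 105 CPM in smooth muscle cells and was lowest in excitatory neurons at 228 ± 75.0 CPM, with library ranges of 545 to 889 CPM and 148 to 381 CPM that did not overlap. Uqcr10, a small subunit, stood at 655 ± 149.8 CPM in smooth muscle cells and 309.6 CPM in microglia. Uqcrc1, a core subunit, was highest in astrocytes at 346 ± 182 CPM and lowest in committed OPC at 178 CPM.

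In complex IV, Cox8a, the ubiquitous form of the smallest subunit, was highest in smooth muscle cells at 1798 ± 201 CPM and lowest in endothelial cells at 708 ± 304 CPM. Cox5a, a matrix-side subunit, was highest in astrocytes at 482 ± 107 CPM and lowest in oligodendrocytes at 251 CPM, while the Pvalb subclass held 525 CPM. Cox7a2l, known as an assembly factor of respiratory supercomplexes, was highest in endothelial cells at 366 ± 41.3 CPM and lowest in committed OPC at 141 CPM.

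In complex V, Atp5b, the catalytic beta subunit, stood at 1210.3 ± 339 CPM in smooth muscle cells and 438 ± 103 CPM in microglia, with library ranges of 754 to 1757 CPM and 331 to 666 CPM. Atp5d, the delta subunit of the rotor stalk, was likewise highest in smooth muscle cells at 598 ± 95.5 CPM and lowest in microglia at 246 CPM. The 3 genes for the c subunit of the membrane ring, which encode the same mature protein, had different highest classes. Atp5g1 was highest in inhibitory neurons at 424 CPM, whereas Atp5g2 (346 CPM) and Atp5g3 (381 CPM) were highest in smooth muscle cells. Atp5g2 was lowest in inhibitory neurons at 126 CPM and Atp5g3 in oligodendrocytes at 149 CPM. Many nuclear members have processed pseudogenes or near-identical copies, and how reads that fit several places were counted is not given in the sources used here, so levels of single genes may be split among copies.

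The sharpest differences between classes lay in the paralogs of complex IV subunits. Ndufa4l2, the hypoxia-inducible paralog of Ndufa4, gave 1463, 2879, 3484, 1725 and 1335 CPM in the rank 1 libraries and 1409, 2926, 3050.4, 1501 and 1484 CPM in the rank 4 libraries in pericytes. The ranks overlapped, and replicates 2 and 3 were the highest libraries in each. The gene lies at chr10:127514967-127517154 on the plus strand (GRCm38). The mean was 2126 ± 846 CPM in pericytes, 658 CPM in smooth muscle cells and 46.5 CPM in endothelial cells, and no other class exceeded 6.66 CPM (oligodendrocytes). Ndufa4 itself, a subunit first assigned to complex I, was lowest in pericytes at 355 ± 202 CPM and highest in inhibitory neurons at 1023 ± 494 CPM. As a share of the UMIs of both genes, Ndufa4l2 took 83.6 ± 11.0% in pericytes (67.2 to 95.3% over 10 libraries), 50.8 ± 11.2% in smooth muscle cells (30.9 to 61.4% over 8) and 6.28 ± 3.13% in endothelial cells. It took 1.80% in oligodendrocytes and 0.796% or less in the remaining classes. Pericyte markers stood at 5584 CPM in smooth muscle cells and 643 CPM in endothelial cells, against 22922 CPM in pericytes. The part of pericyte RNA in the smooth muscle and endothelial values was not tested.

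Cox4i2, the paralog of the regulatory subunit Cox4i1 that is known from lung and from oxygen sensing, had the same classes at its top. Pericytes gave 872, 1175, 1011, 550.4 and 462 CPM in the rank 1 libraries and 941, 939, 1139.6, 555 and 665 CPM in the rank 4 libraries. Replicates 4 and 5 were the lowest 2 values in each rank, and the ranks overlapped. The gene lies at chr2:152754173-152765037 on the plus strand. Means were 831 ± 256 CPM in pericytes, 286 ± 111 CPM in smooth muscle cells, 22.3 CPM in endothelial cells and 15.7 CPM in astrocytes, with 4.16 CPM or less elsewhere. Cox4i1 stayed between 840.1 CPM in inhibitory neurons and 1201 CPM in smooth muscle cells, so Cox4i2 took 43.2 ± 10.0% of the pair's UMIs in pericytes (28.6 to 56.8%), 18.9 ± 5.36% in smooth muscle cells, 2.03% in endothelial cells and 1.37% in astrocytes. For both paralogs the pericyte share exceeded the smooth muscle share, and the part of pericyte RNA in the smooth muscle share was not tested.

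Cox6a2, the heart and skeletal muscle form of subunit VIa, was highest in inhibitory neurons, where it gave 12.6, 131, 53.8, 37.9 and 29.98 CPM in the rank 1 libraries and 12.9, 24.9, 69.8, 46.9 and 65.4 CPM in the rank 4 libraries. Rank 1 replicate 2 was the highest library and the 2 replicates 1 were the lowest, and the ranks overlapped. The gene lies at chr7:128205435-128206387 on the minus strand. The mean was 48.5 ± 35.1 CPM in inhibitory neurons, 9.11 CPM in microglia and 4.83 CPM or less in the other classes. Within inhibitory neurons it was unevenly spread. Pvalb cells held 97.0 ± 63.3 CPM (6 libraries) and Lamp5 cells, neurogliaform-type interneurons, 51.8 ± 18.9 CPM (5 libraries), whereas Sst and Vip cells held 1.93 and 2.29 CPM (8 libraries each). Its share of the UMIs of Cox6a2 and Cox6a1 was 27.2 ± 13.4% in Pvalb cells (5.80 to 41.9%), 19.2 ± 8.21% in Lamp5 cells, 1.33% in Sst cells and 1.07% in Vip cells. The Pvalb value rests on 197 UMIs.

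The other paralogs of complex IV were sparse. Cox6b2, known from testis, was highest in pericytes at 26.3 ± 10.5 CPM and in astrocytes at 18.0 CPM, against 0.703 CPM in excitatory neurons, and took 4.62 ± 2.39% of the UMIs of Cox6b2 and Cox6b1 in pericytes. Cox7a1, the muscle paralog of Cox7a2, reached 10.4 ± 14.5 CPM in pericytes from 19 UMIs, too few to place it. Cox7b2, Cox8b and Cox8c, known from testis or muscle, had 177, 9 and 1 of 110518856 UMIs in all kept cells and did not pass the low-count filter in any class.

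**Figure D2:**
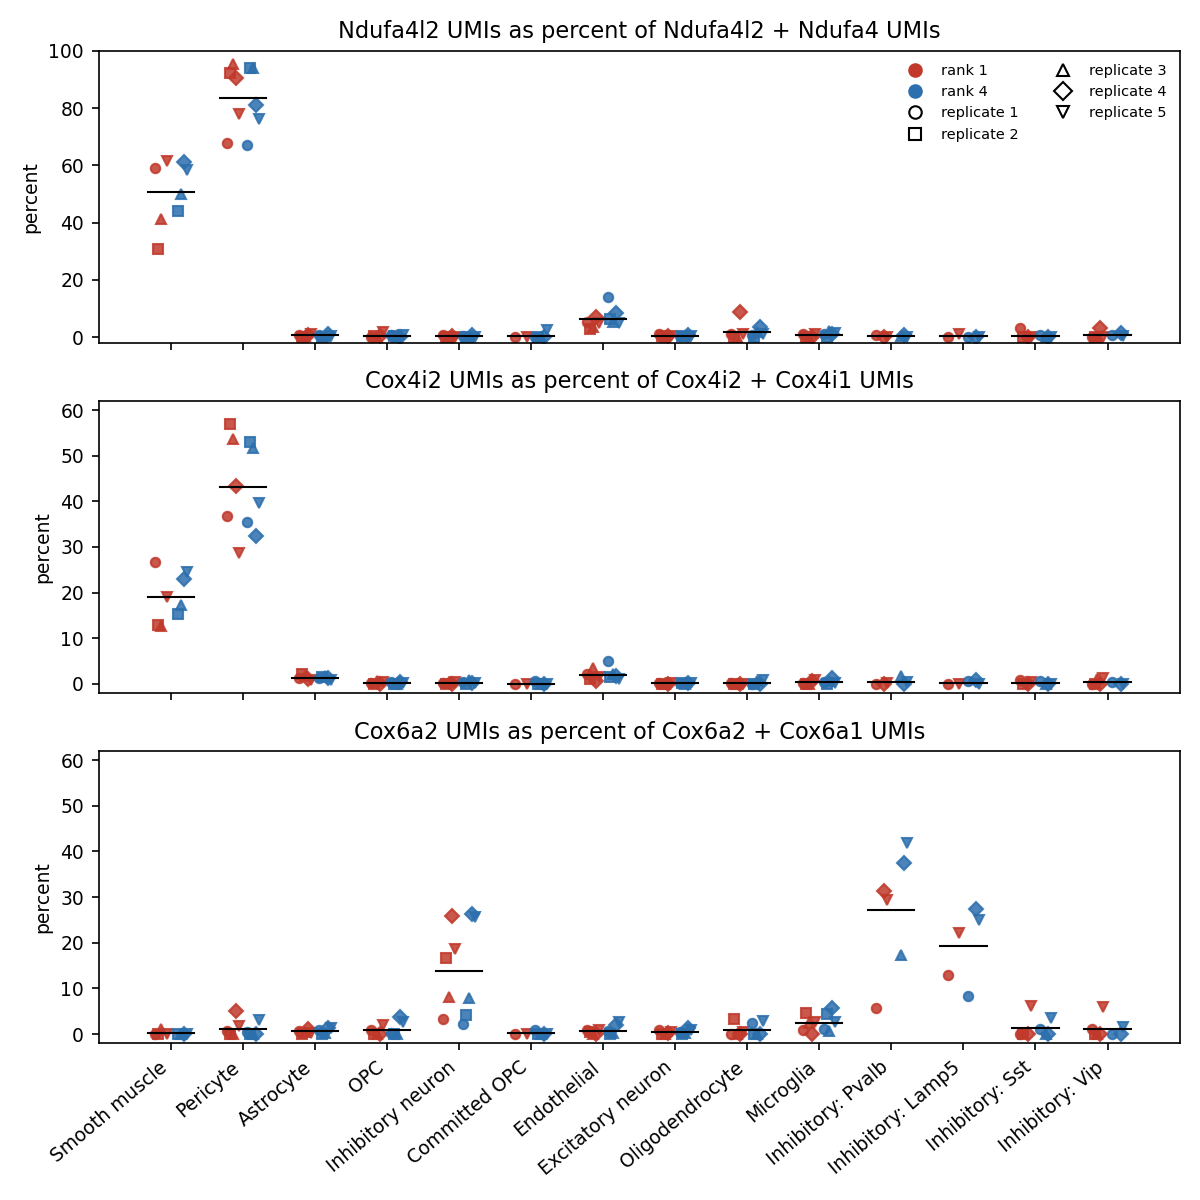
UMIs of Ndufa4l2, Cox4i2 and Cox6a2 as a percent of the UMIs of each with its common paralog, 1 point per library, by class and by inhibitory subclass; bars are means. Ndufa4l2 (mean 83.6%) and Cox4i2 (43.2%) peak in pericytes, with smooth muscle cells next, and Cox6a2 peaks in Pvalb (27.2%) and Lamp5 (19.2%) interneurons.

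Among the mitochondrial members, which are cut from long shared transcripts of the mitochondrial chromosome, 8 of 13 had their highest mean in oligodendrocytes, mt-Nd4, mt-Nd4l and mt-Nd5 in excitatory neurons, and mt-Nd1 and mt-Cytb in inhibitory neurons. Several of them differed more between libraries of 1 class, and by replicate number in both ranks. In excitatory neurons mt-Nd2, a core membrane subunit of complex I, gave 3116, 693, 788, 5090.4 and 4057 CPM in the rank 1 libraries and 3169, 655, 646, 4855 and 2754 CPM in the rank 4 libraries. Replicates 2 and 3 of both ranks lay at or below 788 CPM and all other libraries at or above 2754 CPM. The mean of both ranks differed 7.38-fold between the highest and the lowest number, whereas the ratio of rank 1 to rank 4 within a number stayed between 0.983 and 1.47.

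mt-Co2, a subunit that receives electrons from cytochrome c, showed the same grouping, with 7089.7, 2079, 2411, 12949 and 11916 CPM in the rank 1 libraries and 8332, 1809.8, 1947, 13215 and 7874 CPM in the rank 4 libraries and a 6.73-fold range over numbers. mt-Nd3, a small complex I subunit, gave 1003, 78.5, 116, 666 and 457 CPM in the rank 1 libraries and 1091, 63.9, 75.9, 668 and 357 CPM in the rank 4 libraries, a 14.7-fold range in which replicate 1 was the highest. mt-Nd1, another core subunit of complex I, was also highest in replicate 1 but was higher in replicates 2 and 3 than in 4 and 5, with 10818, 8158, 9303, 3818 and 3015 CPM in the rank 1 libraries and 11709, 7019, 8590.5, 3476 and 1917 CPM in the rank 4 libraries, so that replicates 4 and 5 were its lowest libraries (4.57-fold). Between replicates 2 and 3 and replicates 4 and 5, mt-Nd1 and mt-Nd2 of the same complex thus differed in opposite directions.

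The widest ranges belonged to mt-Nd4l and mt-Atp8, which overlap a neighbouring gene on the mitochondrial chromosome. mt-Nd4l, which shares 7 bases with mt-Nd4, gave 138, 81.8, 81.5, 745 and 1140.5 CPM in the rank 1 libraries and 201, 66.7, 84.7, 851 and 2508 CPM in the rank 4 libraries, 24.6-fold over numbers, and mt-Atp8, 43 bases of which are shared with mt-Atp6, ranged 14.8-fold. The partners had narrower ranges over numbers, at 1.74-fold for mt-Nd4 and 1.42-fold for mt-Atp6, the ATP synthase subunit that took 21.4 to 27.6% of the mitochondrial members' UMIs in every library. mt-Co1 (1.63-fold), mt-Cytb (1.82-fold) and mt-Co3 (1.94-fold) were also narrow, and mt-Nd5 (3.15-fold) and mt-Nd6 (3.38-fold), which share 14 bases on opposite strands, lay between. Within a number, the ratio of rank 1 to rank 4 ranged from 0.808 to 1.51 for mt-Atp6, from 0.738 to 2.15 for mt-Co3 and from 0.455 to 1.23 for mt-Nd4l. For mt-Atp6 and mt-Co3 the pair with the highest ratio thus differed by more than the numbers did, and the pair with the lowest ratio by less. How reads in shared bases were assigned is not given in the sources used here. Replicate number coincides with software version and gene list between replicates 3 and 4, but replicate 1 also stood apart from 2 and 3 within 1 version.

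Nuclear members varied by replicate number as well, in their own order. Cox6a1, the common form of subunit VIa, gave 382, 522, 502, 116 and 138 CPM in the rank 1 libraries and 567, 528, 728, 129 and 176 CPM in the rank 4 libraries in excitatory neurons, and Ndufa3, an accessory subunit of complex I, gave 219, 457, 426, 68.7 and 97.2 CPM in the rank 1 libraries and 299.6, 501, 608, 83.8 and 156 CPM in the rank 4 libraries. For both, replicates 4 and 5 were the lowest libraries of each rank. The cells of this class also sat in different clusters by number: 1 cluster held 66.8% of a library's excitatory neurons on average in replicates 1 to 3 and 1.54% in replicates 4 and 5, and another held 1.69 and 27.3%. Within the 1 excitatory cluster that had at least 20 cells in every library (32 to 247 cells), chosen after seeing the data, the ranges over numbers were 7.59-fold for mt-Nd2, 22.4-fold for mt-Nd4l and 1.38-fold for mt-Atp6. Same-numbered libraries of the 2 ranks are therefore compared with each other beside the pooled comparison below.

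**Figure D3:**
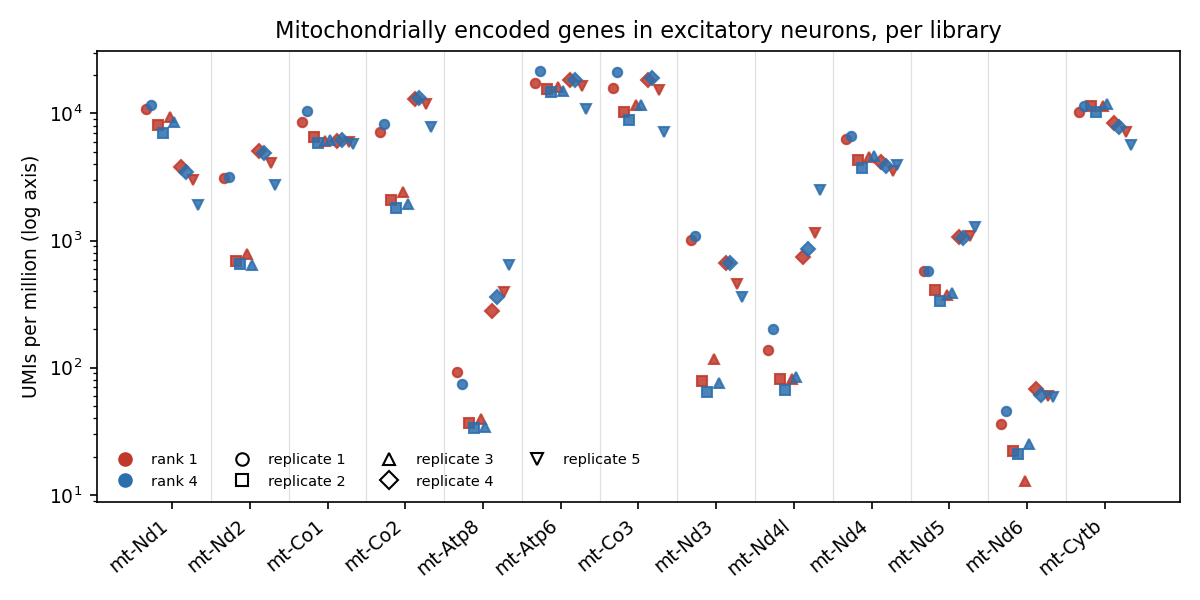
CPM of the 13 mitochondrial members in excitatory neurons on a log axis, 1 point per library, coloured by rank and shaped by replicate number. Replicate numbers are 7.38-fold apart for mt-Nd2 and 24.6-fold for mt-Nd4l. For mt-Atp6 (1.42-fold) and mt-Co3 (1.94-fold) the most unlike pair of the same number differs by more than the numbers do.

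Whether dominant and subordinate mice differed was tested gene by gene in 9 classes, over all genes that passed the low-count filter, with edgeR's quasi-likelihood test on counts summed per library and class and with the gene-list version as a covariate. None of 864 tests of members passed a Benjamini-Hochberg adjusted p of 0.05 (0% of the 61484 tests of all genes did), and DESeq2 also called none. Below an unadjusted p of 0.05, 38 member tests were lower in rank 1 and 0 higher, 4.40% of the member tests, against 1.08% of all tests lower and 1.22% higher. That count depended on single libraries, rising to 86 without rank 4 replicate 1 and dropping to 7 without rank 1 replicate 4 or rank 4 replicate 5 and to 11 without rank 4 replicate 3. With the replicate number as a block, 10 member tests passed the adjusted threshold, of 9 members since Atp5e passed in 2 classes, all lower in rank 1 (0.255% of all tests passed in either direction and 0.202% lower).

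Excitatory neurons held 27 of the 38. There, 77 of 87 nuclear members had a fold change below 0 (51.3% of all genes did), with a median log2 difference (rank 1 minus rank 4) of -0.29, beside a median of -0.01 for all 12358 genes tested, and 27 of the 87 had an unadjusted p under 0.05 on the lower side, where 2.05% of all genes did. The nuclear set share gave 2.08, 2.70, 2.52, 1.55 and 1.63% of UMIs in the rank 1 libraries and 2.61, 2.90, 3.46, 1.61 and 2.13% in the rank 4 libraries. Rank 1 was lower in 5 of 5 same-numbered pairs, while the ranks as a whole overlapped and the log2 difference of -0.26 was smaller than the pooled SD of 0.39. The mitochondrial members showed no such direction, with 7 of 13 above 0, a median of 0.03 and a set share higher in rank 1 in 4 of 5 pairs. The median UMIs per excitatory neuron averaged 3979 over the rank 1 libraries and 2577 over the rank 4 libraries (higher in rank 1 in 3 of 5 pairs, with overlapping ranks), and the part of depth in the difference was not tested. Within replicates 1 to 3, where the depths differed by 0.06 on the log2 scale, the set difference was -0.30, and within replicates 4 and 5, where they differed by 1.30, it was -0.22. Over libraries left out singly the difference ranged from -0.14 without rank 4 replicate 3 to -0.42 without rank 4 replicate 4, and all values were below 0. The first of the clusters named above held 38.6% of a library's excitatory neurons on average in rank 1 and 42.7% in rank 4. Within the 1 cluster with at least 20 cells in every library, rank 1 was also lower in 5 of 5 pairs.

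By complex, the nuclear members of complex IV had the lowest median in excitatory neurons, at -0.35, with 12 of 12 below 0 and 8 at an unadjusted p under 0.05. Complex V followed at -0.32 (15 of 17 below 0), complex I at -0.29 (34 of 36) and complex III at -0.27 (7 of 8). Complex II stood at -0.02 (3 of 4) and the assembly factors at -0.09 (6 of 10). Differences between complexes were not tested.

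Atp5e, the epsilon subunit of the ATP synthase central stalk, had the smallest p of the members in excitatory neurons. It gave 208, 226, 192, 122.6 and 186 CPM in the rank 1 libraries and 334, 235, 318, 167 and 329.6 CPM in the rank 4 libraries. Every rank 1 library was below its rank 4 partner, and the ranks overlapped. The log2 difference was -0.58 (SE 0.19), with an adjusted p of 1 by edgeR's quasi-likelihood test, and -0.56 (SE 0.10) with the replicate block, adjusted p = 0.029. It was lower in rank 1 in all 5 pairs of astrocytes too, at 442, 355, 344, 173 and 381 CPM in the rank 1 libraries and 579.5, 398, 490.0, 301 and 563 CPM in the rank 4 libraries, where the block gave -0.50 (SE 0.12) and an adjusted p of 0.039 (0.366% of astrocyte genes passed). Excitatory-neuron markers in these astrocytes averaged 323 CPM in rank 1 and 468 CPM in rank 4, and their part in the difference was not tested. In inhibitory neurons and OPC, Atp5e stood at log2 differences of -0.50 and -0.42, also in 5 of 5 pairs, without passing either test, and both were -0.26 without rank 4 replicate 5. Excitatory-neuron markers averaged 173 CPM in rank 1 and 321 CPM in rank 4 in inhibitory neurons, and 329 and 478 CPM in OPC. Their part in these differences was not tested either. No match to the NRF1 core lies in the 250 bases of the Atp5e promoter shown above.

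A further 7 members passed with the block in excitatory neurons, where 0.494% of all genes did. Atp5k, whose promoter holds the NRF1 core, gave 247, 529, 422, 163 and 240.2 CPM in the rank 1 libraries and 342, 583, 689.6, 245 and 381 CPM in the rank 4 libraries. Rank 1 was lower in every pair, and replicate 4 was the lowest library of each rank. The block gave -0.53 (SE 0.09) with an adjusted p of 0.029, against -0.53 (SE 0.24) and an adjusted p of 1 without it. Ndufc1, a membrane-arm subunit of complex I, gave 170.0, 312, 274, 95.9 and 135 CPM in the rank 1 libraries and 246, 381, 407, 126 and 220.2 CPM in the rank 4 libraries, a block difference of -0.51 (SE 0.09) and an adjusted p of 0.029. The other complex I genes were Ndufa7 at -0.43 (SE 0.09) and Ndufa3 at -0.43 (SE 0.09), with adjusted p-values of 0.039 and 0.043. The rest were small subunits of complex III, Uqcrq at -0.48 (SE 0.10), Uqcr11 at -0.48 (SE 0.10) and Uqcr10 at -0.49 (SE 0.10), with adjusted p-values of 0.038, 0.042 and 0.043. Without the block, the lowest adjusted p of any member in any class was 0.999.

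Cox8a had the next smallest p in excitatory neurons, at 736, 1030.1, 912, 570.3 and 594 CPM in the rank 1 libraries and 1207, 1041, 1328, 615 and 1021 CPM in the rank 4 libraries. Rank 1 was lower in 5 of 5 pairs, most of all in replicates 1, 3 and 5. Its log2 difference was -0.46 (SE 0.16) and its adjusted p 0.088 with the block, so it passed neither test. In all, 39 of 87 nuclear members were lower in rank 1 in every same-numbered pair of excitatory neurons, where 5.45% of all genes were, and 2 were higher in every pair (5.50% of all genes). Those were the assembly factor Ndufaf7 and Ndufs1, the latter at 130.4, 108, 109, 117 and 107 CPM in the rank 1 libraries and 86.2, 104, 97.8, 108 and 86.4 CPM in the rank 4 libraries. The groups of Ndufs1 overlapped, and its difference of 0.24 (SE 0.12) did not pass.

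**Figure D4:**
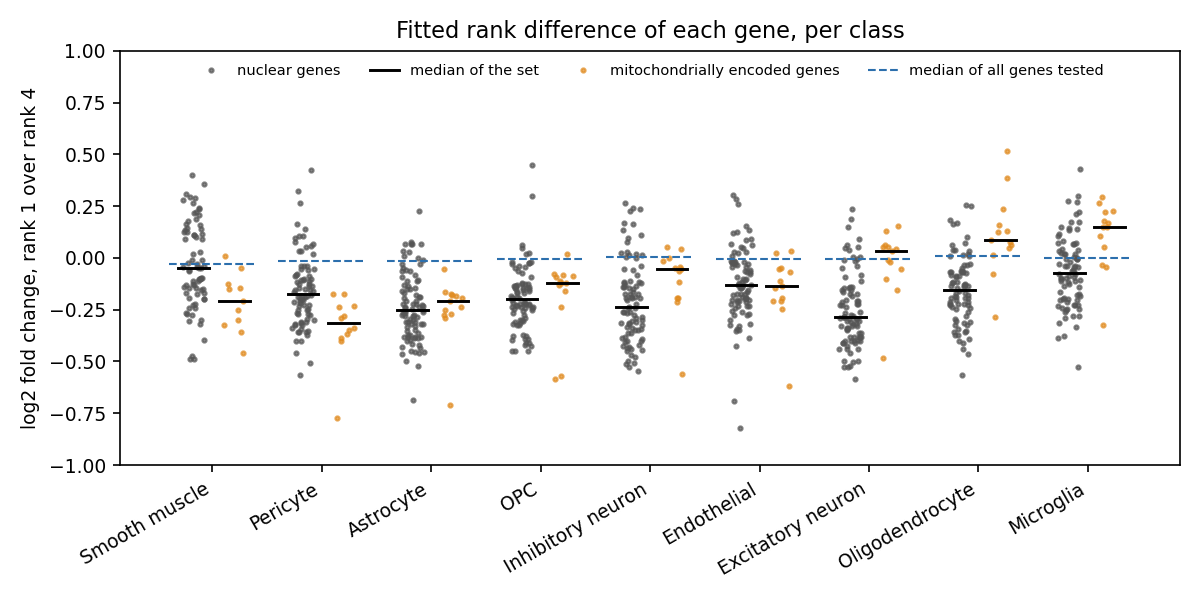
Fitted log2 fold change (rank 1 over rank 4) of each nuclear and mitochondrial member in the 9 tested classes, 1 point per gene; black bars are set medians and dashed lines the medians of all genes tested. Nuclear medians lie between -0.29 in excitatory neurons and -0.05 in smooth muscle cells, below the all-gene medians of -0.03 to 0.01, and no point passed the adjusted threshold without the replicate block.

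The other classes had smaller counts, and their nuclear medians were also below 0. It was -0.25 in astrocytes, -0.23 in inhibitory neurons, -0.20 in OPC, -0.17 in pericytes, -0.15 in oligodendrocytes, -0.13 in endothelial cells, -0.07 in microglia and -0.05 in smooth muscle cells, with all-gene medians from -0.03 to 0.01. All classes come from the same libraries, so the shared side is not independent evidence. Nuclear members lower in rank 1 in every same-numbered pair numbered 27 of 89 in astrocytes (5.48% of all genes), 22 of 87 in inhibitory neurons (4.54%), 16 of 84 in OPC (3.84%), 15 of 82 in pericytes (4.71%), 14 of 84 in endothelial cells (3.87%), 10 of 80 in oligodendrocytes (4.84%) and 4 of 82 in microglia (4.15%). In smooth muscle cells, with 3 pairs, 9 of 75 were lower (13.8%) and 6 higher (14.9%). The astrocyte set difference of -0.25 was -0.11 over the first 3 pairs, -0.47 over pairs 4 and 5, and -0.04 without rank 1 replicate 4. The set share of smooth muscle cells lay on the other side, at 3.71% in rank 1 and 3.48% in rank 4, a log2 difference of 0.09 (0.03 to 0.15 with a library left out) that was smaller than the pooled SD of 0.16, although rank 1 was higher in 0 of its 3 same-numbered pairs. Mitochondrial medians had no common side, from -0.31 in pericytes to 0.15 in microglia. The replicates differed in side, however. Over the pairs numbered 1 to 3, the log2 difference of the mitochondrial set share was below 0 in every class, from -0.54 in pericytes to -0.02 in excitatory neurons. Over pairs 4 and 5 it was above 0 in every class, with the lowest value of 0.24 in excitatory neurons.

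Outside excitatory neurons, Ndufa4l2 in endothelial cells was the second member besides Atp5e in astrocytes to pass with the block. It gave 56.7, 21.5, 26.2, 32.1 and 28.4 CPM in the rank 1 libraries and 139, 43.3, 38.3, 45.9 and 33.2 CPM in the rank 4 libraries. Rank 1 was lower in every pair, and rank 4 replicate 1 stood far above the others. The difference was -0.82 (SE 0.38) without the block, with an adjusted p of 1, and -0.87 (SE 0.21) with it, adjusted p = 0.033 (0.514% of endothelial genes passed). Leaving out rank 4 replicate 1 reduced the difference without the block to -0.28. Pericyte markers in the same endothelial libraries summed to 301 to 988 CPM in rank 1 and 310 to 1986 CPM in rank 4, with means of 519 and 767 CPM, and their part in the difference was not tested. In pericytes themselves Ndufa4l2 differed by 0.06 (SE 0.28) and Cox4i2 by -0.11 (SE 0.19), neither passing.

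The members with the smallest p in the remaining classes did not pass with or without the block. In astrocytes Ndufs5, whose promoter is shown above, gave 506, 398, 478, 258 and 401 CPM in the rank 1 libraries and 599, 463, 575, 413 and 661 CPM in the rank 4 libraries, a difference of -0.45 (SE 0.20) with rank 1 lower in 5 of 5 pairs, and Ndufa1, an X-linked membrane-arm subunit, -0.52 (SE 0.23). Without rank 4 replicate 5 these were -0.28 and -0.31, and without rank 1 replicate 4 Ndufa1 stood at -0.33. In pericytes Atp5j, the coupling factor 6 subunit of the ATP synthase stalk, gave 642, 574, 559.9, 381 and 273 CPM in the rank 1 libraries and 778, 907, 794, 428 and 508 CPM in the rank 4 libraries, a difference of -0.51 (SE 0.19), and Ndufa5 -0.46 (SE 0.20). In oligodendrocytes Uqcr11 differed by -0.57 (SE 0.25) and Ndufa12 by -0.41 (SE 0.25), and Uqcr11 by -0.36 without rank 4 replicate 5. In inhibitory neurons Ndufb9 differed by -0.42 (SE 0.18), in OPC Ndufb2 by -0.39 (SE 0.19), in endothelial cells Ndufc1 by -0.39 (SE 0.20) and in smooth muscle cells Ndufb7 by -0.49 (SE 0.23) and Sdhb, the iron-sulfur subunit of complex II, by 0.36 (SE 0.21). In microglia Ndufc2, a membrane-arm subunit of complex I, gave 402, 304, 269.7, 276 and 265 CPM in the rank 1 libraries and 309, 192, 239, 209 and 175 CPM in the rank 4 libraries. The rank 1 library was the higher one of each pair, with a difference of 0.43 (SE 0.21), and Ndufv3 there differed by -0.38 (SE 0.25), or by -0.24 without rank 4 replicate 5. Ndufs1 was higher in every pair of 3 classes, excitatory neurons, astrocytes (0.23) and microglia (0.27), which share their libraries.

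Related gene lists were read from the same excitatory-neuron fit. Cycs, cytochrome c itself, stood at -0.24. The 35 assembly factors outside the symbol rule had a median of -0.06, with 1 lower at an unadjusted p under 0.05 (2.05% of all genes) and none higher (1.54% of all genes), and the 19 genes of mitochondrial transcription and biogenesis 0.01, with 1 lower and 1 higher. The medians were 0.03 for 15 of 16 genes of the tricarboxylic acid cycle and pyruvate dehydrogenase, -0.07 for 8 carriers and porins, -0.07 for 17 glycolysis and lactate genes and -0.10 for 7 of 8 hypoxia-response genes, with 1 higher in the last list and no other gene of these lists under that p. None of these passed an adjusted p of 0.05 in edgeR's test. Cytosolic ribosomal proteins, a list added after the data were seen, had a median of -0.28 with 80 of 80 below 0, close to the -0.29 of the nuclear members. Their medians in the other classes ran from -0.56 in microglia, where the nuclear members stood at -0.07, to -0.05 in endothelial cells. Neither mitochondrial ribosomal RNA was among the genes tested.

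Within the nuclear members the difference went with transcript length, a relation looked for after the data were seen. In excitatory neurons the Spearman correlation across 87 genes, which are not independent replicates, between the log2 difference and the median length of a gene's coding transcripts was 0.63, beside 0.16 across 11850 genes tested that have a length. That length is a median over all annotated coding transcripts of a gene and need not be that of the one expressed. The large subunit Ndufs1 counted as 651 nucleotides and Uqcrc1 as 533, whereas Atp5g1 counted as 2675.5. On this measure, the 44 members of at most 710 nucleotides had a median of -0.37 and the 43 longer ones -0.17. Other genes as short as those, 789 of them, had a median of -0.08. The correlation was positive in all 9 classes, from 0.32 in smooth muscle cells to 0.56 in astrocytes among the other 8, while that across all genes ranged from 0.01 to 0.22. With the replicate block the excitatory-neuron correlation was 0.62.

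**Figure D5:**
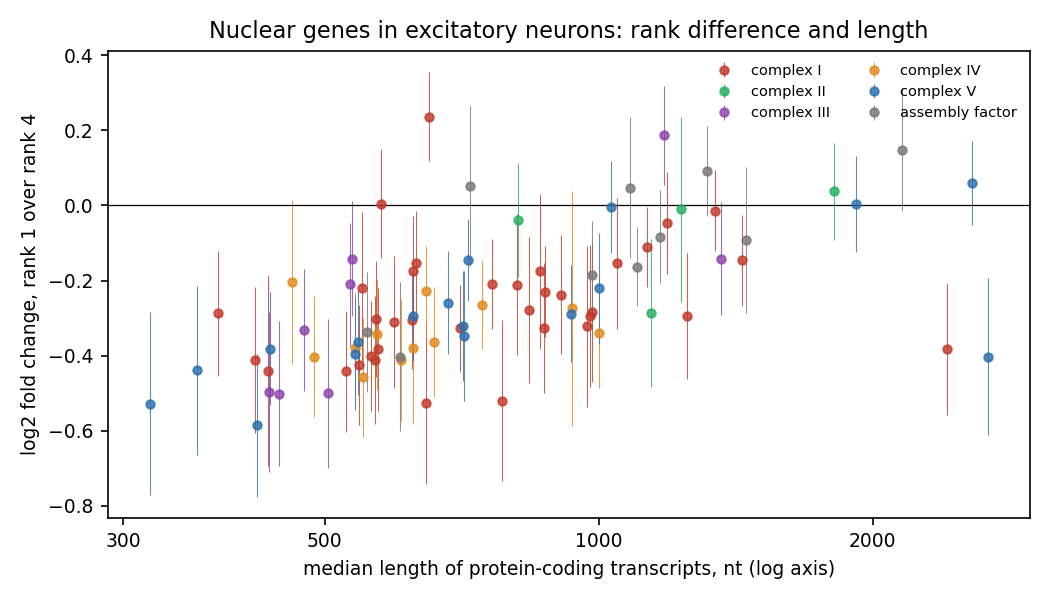
Log2 fold change (rank 1 over rank 4, bars are standard errors) of the 87 tested nuclear members in excitatory neurons against the median length of their coding transcripts (log axis), coloured by complex. Genes whose transcripts have a median length of at most 710 nucleotides lie lower (median -0.37) than the others (-0.17).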

How the data were processed

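UMI counts per gene and barcode of 10 libraries were deposited as raw counts by the authors, per the file headers from Cell Ranger 3.1.0 (replicates 1 to 3) and 4.0.0 (replicates 4 and 5), whereas the submitters' processing notes name 4.0.0 and mm10 for all. The rest used scanpy 1.11.5 on the shared genes: at least 500 genes and at most 15% mt- UMIs per cell, Scrublet doublets removed (threshold replaced in 1 library), 2000 variable genes without members or mt- genes, 30 principal components, 15 neighbours and Leiden resolution 1. Counts were summed per library and class (at least 20 cells) and tested with edgeR 4.0.16, quasi-likelihood with Benjamini-Hochberg adjustment, gene-list version as covariate and at least 3 libraries per rank. DESeq2 1.42.0, other filters and each library left out were alternatives. The test was tested on simulated data. It recovered 72 of 100 genes changed 2-fold in excitatory neurons and 35 of 100 in pericytes, with 9 and 7 false calls. Changes smaller than 2-fold were not simulated. Library depths and what they limit are in the report.

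Genes named were all mitochondrial members, the 12 nuclear members with at least 50 CPM in their highest class and the largest ratio of highest to median class, the paralog pairs, Ndufs1, Sdha, Uqcrc1, Cox5a and Atp5b, the 2 members with the smallest p in each class, any member called with or without the replicate block, and members left out by the filter throughout. Ndufaf7, one of the few members higher in every pair, was named after its values were seen, and the promoters shown were chosen after the matches were known. Members and lists were chosen with earlier results of these data known. The replicate numbers were taken as pairs because deviations of same-numbered libraries from their group means correlated at 0.332 to 0.872 in every class and pair. Once the version was also removed, number 1 still correlated at 0.597 to 0.849 and numbers 2 and 3 at 0.077 to 0.432, but number 4 at -0.553 to -0.115 and number 5 at -0.326 to 0.316, so 2 of the 5 numbers showed no consistent correlation beyond the version. In excitatory neurons, which held most calls of the block, only the libraries numbered 1 then correlated best with each other. For number 2 this held in 1 direction, and for numbers 3, 4 and 5 in neither. The labels describe the replicates of a rank as independent pools of mice.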

Additional observations from a re-analysis of the deposited data

How the results depend on the processing

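With the replicate block, that is with the same-numbered pairing, 10 member tests (9 members) were called in place of 0. Over all genes the block called 157 of 61484 tests (0.255%), also in place of 0. No other alternative called any member. The 38 member tests lower in rank 1 at an unadjusted p under 0.05 (1.08% of tests of all genes) became 69 without the low-count filter (1.83%), 2 without the covariate (0.293%), 215 of 864 with the block (6.05%), 7 to 86 with a library left out (7 and 0.556% without rank 4 replicate 5, 86 and 1.89% without rank 4 replicate 1), and, in splits chosen after seeing the data, 1 in replicates 1 to 3 (0.437%) and 95 in replicates 4 and 5 (2.66%). The 0 tests higher (1.22% of all genes) became 2 with DESeq2 (0.95%), 3 with the block (4.10%), 1 at a mitochondrial limit of 10% (1.35%), 2 with at least 1000 genes per cell (1.32%), 0 to 3 with a library left out (3 and 1.62% without rank 4 replicate 1) and 4 in replicates 4 and 5 (1.97%). The mitochondrial share in excitatory neurons was 8.52% at a limit of 30%. The log2 rank difference of the mitochondrial set, from replicates 4 and 5 alone, was 0.43 in pericytes (-0.15 from all) and 0.34 in smooth muscle cells (-0.01 from all). It was also 0.49 in astrocytes (-0.11 from all), 0.40 in endothelial cells (-0.05 from all) and 0.56 in OPC (0.01 from all). The pericyte difference from all ran from -0.34 to 0.11 with a library left out. The log2 rank difference of the nuclear set in smooth muscle cells turned from 0.09 to -0.0926 with at least 1000 genes per cell and to -0.03 over its same-numbered pairs. The cause of these shifts was not tested, except that fewer samples entered where libraries were left out. Of 378 settings for fold changes of the 2 members with the smallest p in each class, 376 stayed on the same side of the threshold with the same direction, and the others were Atp5e in excitatory neurons and Ndufa4l2 in endothelial cells with the block. The other members called with the block were not part of that count. The nuclear share by class moved by less than 1 SD in 135 of 135 values under the other settings, and also without Ndufa4l2 and Cox4i2, chosen after seeing the data. Depth limits the rare classes and the rare paralogs most, since smooth muscle cells allowed tests of 1380 genes and excitatory neurons of 12358.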
